A study of Homo sapiens with 8 samples.

Results

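The transcripts described here encode 5 regulators that hold the tumour suppressor p53 in check: MDM2, MDM4, PPM1D, CCNG1 and RCHY1. They were read by every probe set of the array whose platform annotation names one of these genes, which gave 23 of 54675 probe sets and 5 of 19775 named genes. MDM2 had 10 of them, MDM4 6, RCHY1 4, PPM1D 2 and CCNG1 1, and none names another gene as well. The mean level of 4 of the 23 lay below the 40th percentile of the table, and these 4 dim ones are named as such.

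The measurements come from 8 Affymetrix arrays of HTETOP cells. This human line descends from the fibrosarcoma line HT1080, and its gene for topoisomerase II alpha, TOP2A, is under tetracycline control. All 4 groups carry that control. In 1 comparison cells received doxycycline at 1 µg/ml, which shuts TOP2A off, or its vehicle, with 1 array each and RNA pooled from passages 15 to 17. In the other, cells received dexrazoxane at 100 µM, a catalytic inhibitor of type II topoisomerases, or its vehicle, with 3 arrays each. Every treatment lasted 24 h, and RNA of 3 passages was pooled for each array. Nothing in the labels says that numbered arrays are separate cultures. The p-values below therefore reflect the scatter among these arrays alone, and that scatter may be technical.

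When DNA is damaged, p53 is stabilised and switches on genes that stop the cell cycle, repair DNA or kill the cell. Among the genes it switches on are its own inhibitors, which closes a negative feedback loop. MDM2, a RING-finger ubiquitin ligase, binds the transactivation domain of p53 and marks p53 for the proteasome. MDM4 is a relative of MDM2 that masks the same domain and works as a partner of MDM2. PPM1D, also called WIP1, is a phosphatase that removes damage-induced phosphates from p53 and from the kinases upstream of it. CCNG1, cyclin G1, brings protein phosphatase 2A to MDM2, and RCHY1, also called PIRH2, is another p53-induced ubiquitin ligase for p53.

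The sequence that ties MDM2 to p53 is shown because MDM2 has 10 of the 23 member probe sets. Its part in the differences reported below was not tested. RefSeq places 4 MDM2 transcription starts on GRCh38.p14 in 2 clusters 845 bases apart on the plus strand of chromosome 12, and p53 is known to act on the internal one. Each start was taken with a window of 300 bases, 250 before it and 50 after it. Each window was searched for a pair of adjoining copies of the p53 consensus decamer, a motif of 20 bases that equals its own reverse complement, so that 1 pass covers both strands. Windows of the internal cluster held a match at 18 of 20 bases and another at 17, whereas the best match of the upstream cluster reached 15. The stretch of the internal promoter that holds both, chr12:68808903-68809000 on the plus strand, reads 5′ to 3′ as follows, with both elements in capitals, their 2 and 3 mismatched bases included.
MDM2 internal promoter: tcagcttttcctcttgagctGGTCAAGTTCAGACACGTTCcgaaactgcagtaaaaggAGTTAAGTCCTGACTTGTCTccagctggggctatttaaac

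The matches begin 94 and 56 bases before the more upstream start of that cluster. A match at 17 or more bases was found in 5.2% of all 35116 promoter windows of the RefSeq set, and one at 18 or more in 0.649%. The best match reached 16 bases in the PPM1D window, 15 in the MDM4 window and in each of the 4 RCHY1 windows, and 14 in both CCNG1 windows. A match describes letters in a window only; p53 binding was not measured.

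The deposited values are log2 expression made with RMA, which corrects background, equalises the arrays' distributions and summarises the probes of a set. Medians over all probe sets were 4.81 and 4.82 on the doxycycline arrays and 5.49 to 5.57 on the others, so levels are not compared between the 2 treatments. TOP2A checked the labels: its brighter probe set (201291_s_at) read 11.98 with the doxycycline vehicle and 6.02 with doxycycline. With dexrazoxane it was 2.97-fold lower and the other bright one (201292_at) 3.38-fold lower (limma adjusted p = 0.178 and 0.0353, paired 0.0238 and 0.00172). A dim TOP2A probe set, 237469_at (mean 3.89, under the 40th percentile), did not follow. It differed by 0.06 with doxycycline and by -0.20 with dexrazoxane (limma paired adjusted p = 0.452). Of 10 mesenchymal markers the mean level lay 4.06 to 4.25 above the array median on the 8 arrays. The means of epithelial and endothelial markers (6 and 5 genes) lay within -0.19 and 0.08 of it. Among the epithelial ones KRT8 stood at 9.70 in the dexrazoxane vehicle group, EPCAM at 3.24 and CDH1 at 3.84. The 5 leukocyte markers lay 0.73 to 1.07 above it on average. In the dexrazoxane vehicle group LCP1, which many tumour lines express, stood at 10.90, CD3E at 7.01 and CORO1A at 6.54. CD14 stood at 4.59 and the pan-leukocyte PTPRC at 3.84. Of all these markers, TIMP1 and KRT8 were called higher with dexrazoxane in the limma fit with the replicate block described next (adjusted p = 0.0466 and 0.0479); their part in the members' differences was not tested.

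With dexrazoxane, transcripts of MDM2 and PPM1D stood highest above their vehicle, by up to 1.49-fold and 1.37-fold on their brightest probe sets, followed by CCNG1 at 1.19-fold. Those of MDM4 and RCHY1 overlapped between the groups on all of their probe sets. Of the 23 member probe sets 16 lay above 0, against 50% of all probe sets, 11 were higher in 3 of 3 numbered pairs, against 17.9%, and 1 was lower in 3 of 3, against 17.8%. MDM2 alone gave 9 of the 16, 6 of the 11 and 0 of the last. Probe sets of 1 gene read the same gene on the same arrays, so counts here and below are not of 23 independent members.

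No member probe set passed the limma test over all 54613 probe sets, at a Benjamini-Hochberg adjusted p under 0.05. That holds for the fit of 3 against 3 arrays, in which 0% of all probe sets were called higher and 0.00183% lower. It also holds for another limma fit that takes same-numbered arrays as pairs (a replicate block), in which 0.0751% were called higher and 0.0824% lower. At an unadjusted p under 0.05 the first limma fit had 6 member probe sets higher and 0 lower. Over all 54613 it had 1096 higher and 924 lower. In the paired fit 9 members were higher and 1 lower, against 3658 and 3525 over all probe sets. On 7 of the 23 the 3 dexrazoxane arrays all lay above the 3 vehicle arrays, a pattern seen in 4.61% of all probe sets, and on 0 they all lay below, against 3.9%. These 7 were 4 of the 10 MDM2 probe sets, both PPM1D probe sets and the CCNG1 probe set. The median difference over the 23 was 0.15 on the log2 scale, beside a median of -4.2e-05 over all probe sets.

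With all arrays the largest difference among the members was that of the brightest MDM2 probe set, 229711_s_at, but this rank depended on the arrays used. Without vehicle replicate 2 that of 205386_s_at was larger, at 0.68 against 0.66. It was also larger without dexrazoxane replicate 3 (0.60 against 0.56) and without pair 3 (0.68 against 0.54). That of 238733_at was larger without vehicle replicate 3 (0.68 against 0.56) and without dexrazoxane replicate 1 (0.65 against 0.61). The brightest probe set read 10.80, 11.09 and 10.89 on vehicle arrays 1 to 3 and 11.43, 11.53 and 11.54 on dexrazoxane arrays 1 to 3. The groups did not overlap, with a gap of 0.35 between the lowest treated and the highest vehicle array. The means were 10.93 ± 0.15 and 11.50 ± 0.06 (SD, n = 3), a difference of 0.58 ± 0.12 (SE) or 1.49-fold, at percentile 99.8 of all probe sets. The limma adjusted p was 0.970 without the block and 0.0546 with it (SE 0.09). When only the 32769 probe sets at or above the 40th percentile of mean level were tested, the paired limma fit called it, at an adjusted p of 0.0435, along with 0.369% of them higher and 0.558% lower. Over 11 paired fits with different settings it was called in 5, with adjusted p from 6.56e-05 to 0.158 in limma, and over 15 unpaired fits in 0, from 0.620 to 1.000. Both sets of fits count 1 of the mean of all 10 MDM2 probe sets, which was not called.

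**Figure D1:**
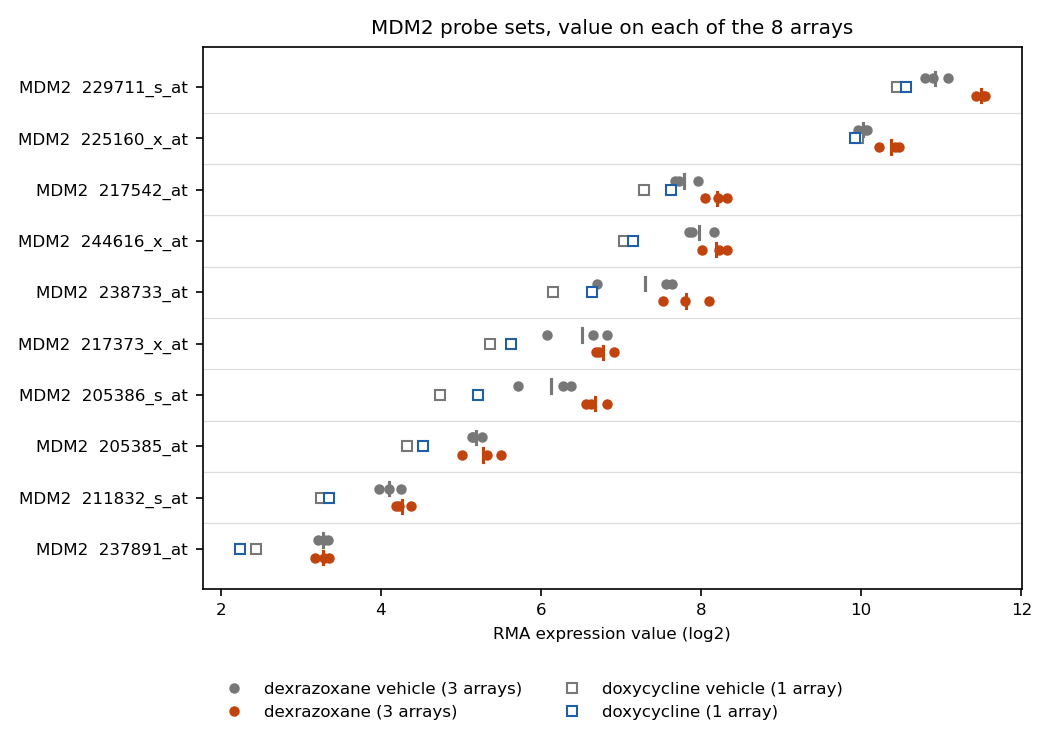
RMA log2 values (horizontal axis) of the 10 MDM2 probe sets (rows, brightest at the top) on each of the 8 arrays; filled circles are the dexrazoxane (red) and vehicle (grey) arrays with a tick at each group mean, open squares the doxycycline (blue) and vehicle (grey) arrays. On 229711_s_at, 225160_x_at, 217542_at and 205386_s_at every dexrazoxane array lies above every vehicle array, and on 237891_at the group means are 3.28 and 3.27.

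On 3 more MDM2 probe sets the treated arrays stood clear of the vehicle arrays. Probe set 205386_s_at read 5.71, 6.37 and 6.28 with vehicle and 6.62, 6.83 and 6.57 with dexrazoxane. Its difference was 0.55 ± 0.18 (SE) or 1.47-fold, and vehicle array 1 was the low one of its group; without that array the difference was 0.35. Probe set 217542_at read 7.67, 7.72 and 7.96 with vehicle and 8.32, 8.05 and 8.22 with dexrazoxane. Its difference of 0.41 ± 0.13 (SE) came with a gap of 0.09 between the groups. Probe set 225160_x_at read 9.96, 10.07 and 10.03 with vehicle and 10.47, 10.23 and 10.43 with dexrazoxane, a difference of 0.35 ± 0.11 (SE). The suffix _x_at means that some probes of the set also match other sequences. The limma paired adjusted p was 0.116, 0.141 and 0.176 for these 3, in the order given.

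The other 6 MDM2 probe sets overlapped between the groups. Probe set 238733_at read 6.71, 7.56 and 7.64 with vehicle and 7.53, 7.80 and 8.10 with dexrazoxane, a difference of 0.51 ± 0.25 (SE). It was higher in all 3 numbered pairs, by 0.82, 0.24 and 0.46, and vehicle array 1 was low again; without that array the difference was 0.21. Differences were 0.22 for 244616_x_at, also higher in 3 of 3 pairs, 0.26 for 217373_x_at, 0.15 for 211832_s_at and 0.10 for 205385_at, each of these higher in 2 of 3. Without vehicle replicate 1, 217373_x_at differed by 0.043 and 211832_s_at by 0.086; without vehicle replicate 2, 217373_x_at differed by 0.42. The dimmest, 237891_at, differed by -0.01. The 2 dimmest MDM2 probe sets, 211832_s_at and 237891_at, had means under the 40th percentile of all probe sets. Which MDM2 transcripts each probe set reads is not given in the annotation used here.

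The MDM2 difference was unequal over the pairs. Its median over the 10 probe sets was 0.57 in pair 1, 0.16 in pair 2 and 0.28 in pair 3. Without vehicle replicate 1 the difference of 229711_s_at was 0.51, and without vehicle replicate 2 it was 0.66, the lowest and highest of the 9 fits that left out an array or a pair. The mean of all 10 probe sets differed by 0.31 ± 0.11 (SE), which was not called in limma (adjusted p = 0.906, paired 0.101).

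For MDM4 no probe set separated the groups. The brightest, 236814_at, read 8.37, 8.17 and 9.02 with vehicle and 8.55, 8.06 and 9.26 with dexrazoxane. Array 3 was the highest and array 2 the lowest in both groups, so the spread within a group was wider than the difference of 0.10 ± 0.31 (SE). Probe set 225740_x_at read 7.87, 7.71 and 7.99 with vehicle and 7.94, 7.37 and 8.16 with dexrazoxane. The 95% interval of the difference ran from -0.61 to 0.81 for the first and from -0.48 to 0.42 for the second without the block, and from -0.12 to 0.33 and -0.29 to 0.23 with it. The other 4 MDM4 probe sets differed by -0.19 (225742_at) to -0.04 (205655_at, a dim one), and 0 of the 6 went one way in all 3 pairs. Limma paired adjusted p-values were 0.672 to 0.942. The unpaired intervals are wide: that of 236814_at includes the difference of MDM2, whereas the paired one ends below it.

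PPM1D stood higher on both of its probe sets. On 204566_at the arrays read 8.19, 7.98 and 8.23 with vehicle and 8.76, 8.51 and 8.50 with dexrazoxane. The groups did not overlap, and the difference was 0.46 ± 0.13 (SE) or 1.37-fold, with pair differences of 0.57, 0.53 and 0.27. On 230330_at they read 6.19, 5.89 and 6.06 with vehicle and 6.44, 6.35 and 6.38 with dexrazoxane. Again the groups did not overlap, and the difference was 0.34 ± 0.12 (SE) or 1.27-fold, with pair differences of 0.25, 0.46 and 0.32. In limma both had an adjusted p of 1.000 unpaired, and of 0.0953 and 0.151 paired. With 1 probe set for each of 19775 genes, the paired limma fit called PPM1D higher (adjusted p = 0.0425), as it did MDM2 (0.0188); in that fit 0.986% of genes were called higher. Over 11 paired limma fits, 1 of them of the mean of both probe sets and the others of 204566_at, PPM1D was called in 4 (adjusted p from 0.00524 to 0.272). The mean was among the 4, at 0.0399. Over 15 unpaired limma fits, again with 1 of the mean, it was called in 0 (0.798 to 1.000). The 0.798 belonged to the mean, and the lowest of 204566_at itself was 0.864.

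The single CCNG1 probe set, 208796_s_at, read 11.18, 11.51 and 11.48 with vehicle and 11.62, 11.62 and 11.68 with dexrazoxane. The treated arrays were close together and all above the vehicle arrays, of which array 1 was the low one. The difference was 0.25 ± 0.12 (SE) or 1.19-fold, with pair differences of 0.44, 0.12 and 0.20. The limma adjusted p was 1.000 without the block and 0.302 with it. Over 11 paired limma fits it was called in 1, the fit with trended and robust variance (adjusted p = 0.0278), and it ranged up to 0.660. Without vehicle replicate 1 the difference was 0.15.

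RCHY1 overlapped between the groups on all 4 of its probe sets. The brightest, 212749_s_at, read 9.66, 9.84 and 10.06 with vehicle and 9.86, 9.93 and 10.21 with dexrazoxane, a difference of 0.15 ± 0.15 (SE). Probe set 214281_s_at read 9.57, 9.75 and 10.22 with vehicle and 9.83, 9.86 and 10.26 with dexrazoxane. Both were higher in 3 of 3 pairs, and on both, array 3 was the highest of each group. Leaving out 1 array moved the first difference between 0.046 and 0.25 and that of 214281_s_at between 0.00070 and 0.32. Probe set 235300_x_at differed by 0.004, and the dim 212743_at, under the 40th percentile, by -0.23, lower in 3 of 3 pairs. Limma paired adjusted p-values of the 4 were 0.339 to 0.992. The probe sets of RCHY1 therefore did not share a direction.

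**Figure D2:**
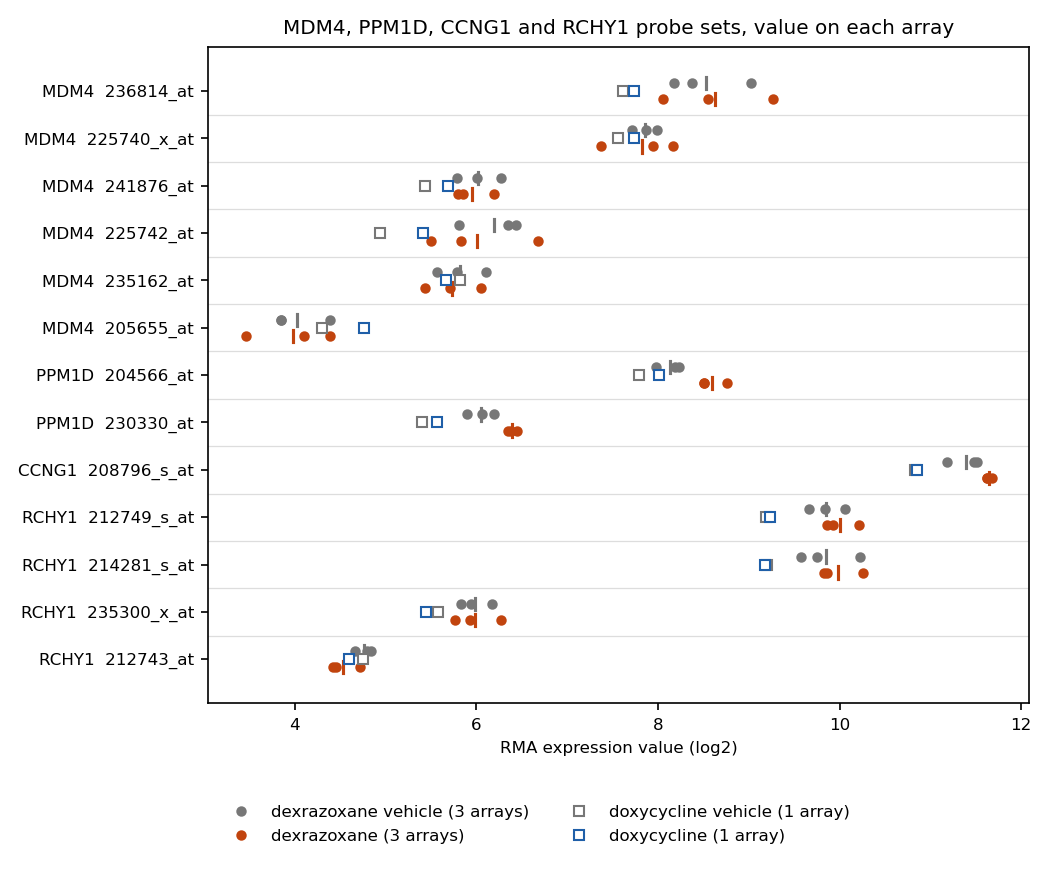
RMA log2 values (horizontal axis) of the MDM4, PPM1D, CCNG1 and RCHY1 probe sets (rows) on each of the 8 arrays, drawn as for MDM2: filled circles for dexrazoxane (red) and vehicle (grey) with a tick at each mean, open squares for doxycycline (blue) and vehicle (grey). The dexrazoxane arrays stand clear of the vehicle arrays on both PPM1D probe sets and on CCNG1, and overlap them on all 6 MDM4 and all 4 RCHY1 probe sets.

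The change of MDM2 was set against that of each other regulator on the brightest probe set of each, as MDM2 minus the other gene within each array. MDM2 exceeded MDM4 by 0.47, RCHY1 by 0.43, CCNG1 by 0.32 and PPM1D by 0.12 on the log2 scale. Against MDM4 the numbered pairs gave 0.46, 0.56 and 0.41, and MDM2 was ahead of RCHY1 and CCNG1 in 3 of 3 pairs as well. Against PPM1D they gave 0.07, -0.09 and 0.38, so MDM2 was ahead in 2 of 3. Two-sided exact permutation tests over the 6 arrays, which take no account of the pairs, gave p = 0.1 for RCHY1 and CCNG1, 0.5 for MDM4 and 0.8 for PPM1D (adjusted over the 4 comparisons 0.2, 0.2, 0.667 and 0.8). The smallest p that 3 against 3 arrays allow is 0.1, so these tests could not reach 0.05 and do not settle whether the genes differ.

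With doxycycline, 17 of the 23 member probe sets were above 0, against 47.5% of all probe sets, with 1 array in each group and no error on any value. The median over the members was 0.12, beside 0 over all probe sets. Of the 23, 5 were at least 1.25-fold higher, against 3.46% of all probe sets, and 0 at least 1.25-fold lower, against 3.99%. None reached 1.5-fold in either direction, which 0.22% of all probe sets did upwards and 0.17% downwards. None of the 23 had identical values on both arrays, as 9.63% of all probe sets did. Of the 5 at least 1.25-fold higher, 3 read MDM2 and 2 read MDM4, and probe sets of 1 gene are not independent.

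For MDM2 8 of 10 probe sets were above 0 with doxycycline. The largest differences were 0.49 for 238733_at (6.15 with vehicle and 6.64 with doxycycline), 0.48 for 205386_s_at (4.74 and 5.21) and 0.33 for 217542_at (7.29 and 7.62). Over all probe sets of the same decile of mean level, 97.5% lay below 0.27, 0.32 and 0.22. These deciles rest on the mean of all 8 arrays. On the doxycycline vehicle array itself 205386_s_at lay below the array median of 4.82. The 2 brightest MDM2 probe sets showed little: 229711_s_at read 10.45 and 10.56, and 225160_x_at read 9.95 and 9.92. The probe set with the largest dexrazoxane difference over all arrays, 229711_s_at, was therefore inside the range of its decile, whose upper bound was 0.16.

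For MDM4 5 of 6 probe sets were above 0 with doxycycline. The largest were 0.47 for both 225742_at (4.93 and 5.41) and 205655_at (4.30 and 4.77), against upper bounds of 0.35 and 0.43 in their deciles. On the vehicle array, whose median was 4.82, the first lay near that median and the other below it. Neither had gone one way in the 3 dexrazoxane pairs. Brighter MDM4 probe sets differed by 0.12 (236814_at, 7.62 and 7.73) and 0.18 (225740_x_at, 7.56 and 7.74). PPM1D differed by 0.22 on 204566_at (7.79 and 8.01), inside the range of its decile, whose upper bound was also 0.22 after rounding, and by 0.17 on 230330_at (5.39 and 5.56). CCNG1 differed by 0.03 (10.83 and 10.86), and the 4 RCHY1 probe sets by -0.15 to 0.04. The response to doxycycline and that to dexrazoxane have vehicles and arrays of their own, and the difference between them was not tested.

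**Figure D3:**
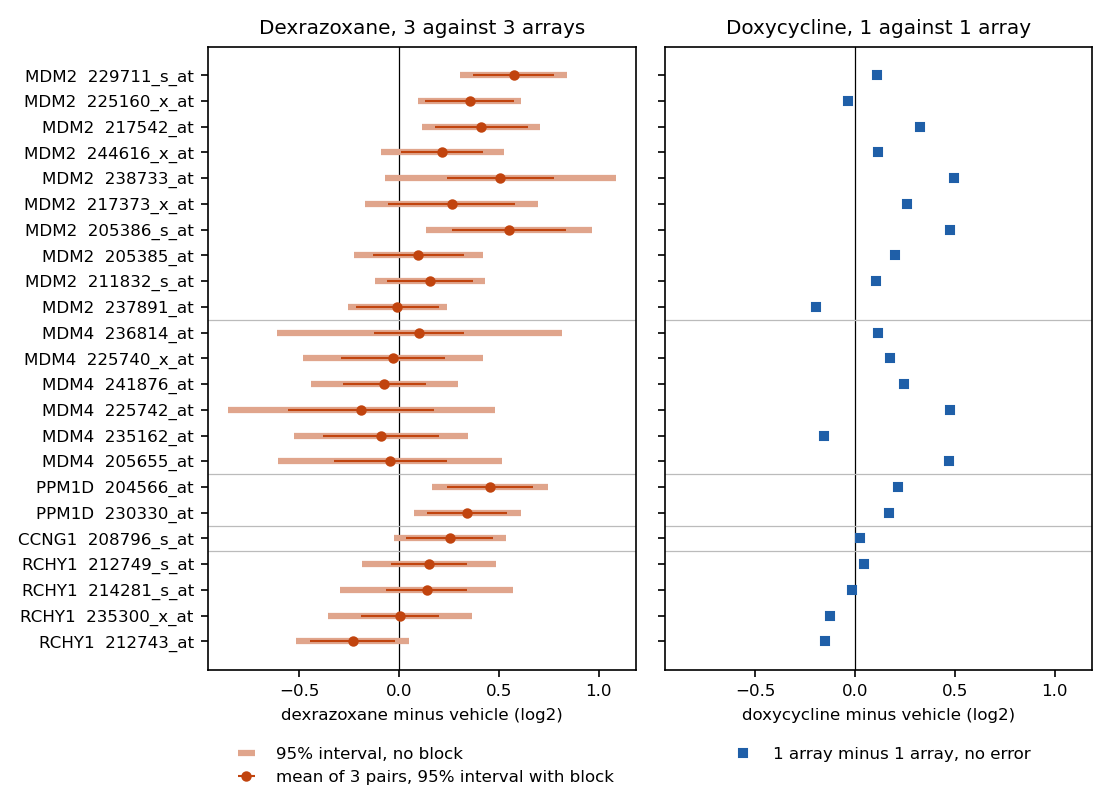
Treated minus vehicle difference in log2 value (horizontal axes) for the 23 probe sets (rows, grouped by gene); left, the dexrazoxane mean with its limma 95% interval without the block (thick pale bar) and with it (thin bar), right, the single doxycycline difference, which has no error. The unpaired interval lies above 0 for 4 MDM2 and both PPM1D probe sets, and on the right 238733_at has the largest value, 0.49.

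Genes that act around this loop were taken as 8 lists with 1 probe set for each gene, the one with the highest mean. In the unpaired limma fit 0 genes of any list were called, as 0% of all 19775 genes were called in either direction. In the paired limma fit dexrazoxane raised 7 of 25 p53-induced effector genes and lowered 0, where 0.986% of all genes were called higher and 1.16% lower. The 7 were CDKN1A, DDB2, PHLDA3, PLK3, TP53I3, TP53INP1 and XPC. In the unpaired limma fit 10 of the 25 were higher at an unadjusted p under 0.05, against 551 of all 19775 genes. Without pair 1 the paired fit called 2 of the 25 higher, and 67 of all genes. Their median difference was 0.27, beside 0.01 over all genes, and 23 of 25 were above 0, against 52.6% of all genes. The 3 with the smallest unpaired p were TP53INP1, a p53-induced nuclear protein gene (1.04 ± 0.15, SE of the paired fit), TP53I3, an oxidoreductase gene (0.89 ± 0.08), and the damage recognition gene DDB2 (0.45 ± 0.09). With doxycycline these 3 differed by 0.20, 0.16 and 0.22, and the list's median was 0.11, with 23 of 25 above 0, beside 49.7% of all genes.

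Of 6 kinases upstream of p53, 1 fell and 0 rose in the paired limma fit. It was CHEK1, the checkpoint kinase that PPM1D dephosphorylates (-0.44 ± 0.08, adjusted p = 0.0387), lower in 3 of 3 pairs and at -0.04 with doxycycline. The count was 0 in the fits that left out any 1 array or pair. HIPK2, which phosphorylates p53, differed by -0.32 and the damage kinase ATR by -0.20 (limma paired adjusted p = 0.0900 and 0.226), and 1 of the 6 was above 0.

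In the remaining 6 lists 0 genes were called in either fit. Of 12 phosphatases related to PPM1D, 11 were above 0 with a median of 0.09; the 3 with the smallest p were PPM1H (0.17), PPM1A (0.17) and PPM1J (0.09). Of 7 relatives of CCNG1 and B56 subunits of protein phosphatase 2A, which cyclin G binds, 5 were above 0 with a median of 0.13. PPP2R5B, one of those subunits, differed by 0.33, PPP2R5D by 0.20 and PPP2R5A by 0.13. Of 9 p53 family members and cofactors 6 were above 0 with a median of 0.16, with the acetyltransferase genes CREBBP at 0.29 and EP300 at 0.16 and PPP1R13B, which encodes ASPP1, at 0.24.

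The last 3 of these lists hold direct partners of p53 and MDM2. Of 10 further ubiquitin ligases and cofactors 5 were above 0, with a median of -0.002; SIAH1 differed by -0.20, MKRN1 by 0.16 and STUB1 by 0.12. Of 4 deubiquitinases 2 were above 0, with OTUD5 at 0.15, OTUB1 at 0.11 and USP2 at -0.09. Of 3 proteins of the ribosome and nucleolus that bind MDM2, NPM1 and NCL both differed by -0.08 and RPL11 by 0.02. The lowest limma paired adjusted p in these 6 lists was 0.112, for CREBBP.

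**Figure D4:**
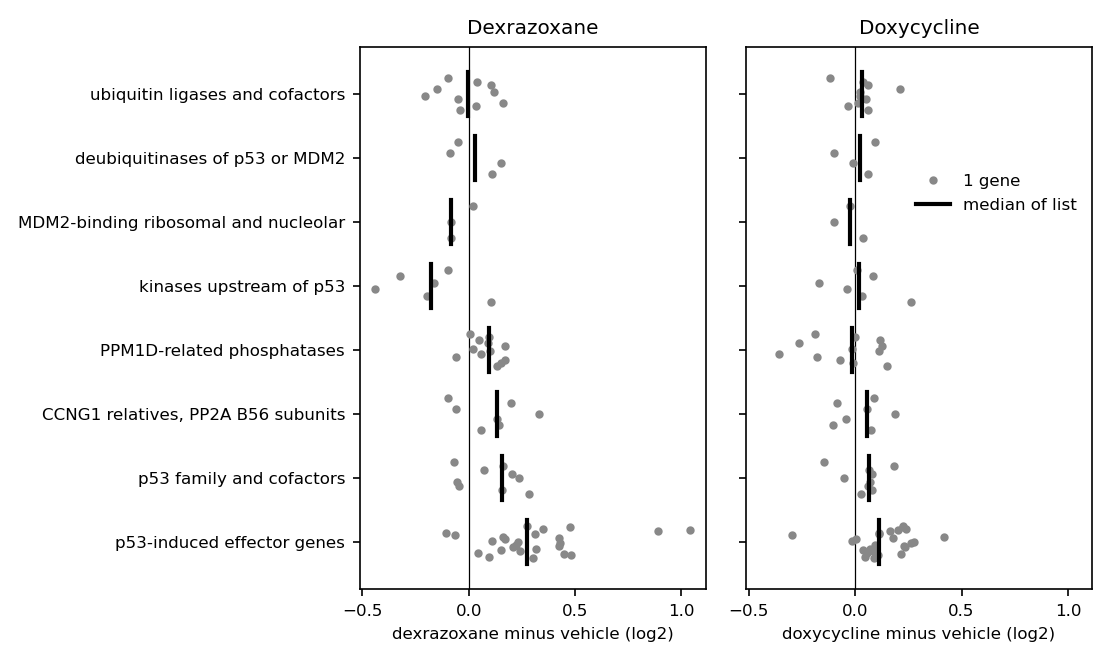
Treated minus vehicle difference in log2 value (horizontal axes, left dexrazoxane, right doxycycline) for the genes of the 8 lists (rows), 1 grey point per gene and a black bar at each list's median. The p53-induced effector genes have the highest median on both sides, 0.27 and 0.11, and the kinases upstream of p53 the lowest with dexrazoxane, -0.18.

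The genes whose differences were most like those of MDM2 probe set 229711_s_at were found by the root mean square distance over 4 differences, the 3 numbered dexrazoxane pairs and the doxycycline pair, among 14730 other genes at or above the 40th percentile. MDM2 itself stood at 0.64, 0.44, 0.65 and 0.11. The closest was SERPINB1, an inhibitor of neutrophil proteases (0.61, 0.40, 0.67 and 0.15, distance 0.034), followed by the complement protease-like gene C1RL (0.64, 0.45, 0.62 and 0.05, distance 0.035). Next came the connexin gene GJB5 (distance 0.037), EPS8L2, an actin regulator of the EPS8 family (0.041), and SERPINB5, which encodes maspin (0.049). Their mean dexrazoxane differences ran from 0.54 to 0.57.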

How the data were processed

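The 8 arrays hold 1 expression value per probe set. The log2 values were computed by the authors by RMA, which the submitters' processing notes name, before they were deposited; its version and whether all arrays were normalized together are not given in the sources used here. Gene names came from the platform's annotation table: 41097 carried 1 symbol, 1801 several and 11777 none there, and 41043 symbols were updated through a RefSeq table of GRCh38.p14. The transcript of p53 itself was not analysed here.

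All 54613 probe sets other than 62 control sets were fitted with limma 3.58.1 in R 4.3.3 (lmFit, eBayes, two-sided, Benjamini-Hochberg, bound 0.05), with no filter so that every member was tested; 19 of the 23 reached the 40th percentile of mean level, 4.83. The main fit had no block. Taken from its group mean, each array's deviation correlated with that of the same-numbered array at 0.727, 0.450 and 0.530, and with others at -0.530 to 0.144, so the numbers were taken as pairs and a fit with the replicate block is printed beside the main one. These correlations are constrained, since deviations sum to 0 in a group, and the pairing rests on the same data. The doxycycline pair has no test. The number of arrays limits the precision. The procedure was tested on simulated arrays whose pair profiles came from these data and whose noise came from the paired fit. Those arrays assume the pairs, so they cannot tell whether the pairing holds.

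The members and lists were chosen with earlier results of these data known. Named genes are the members, TOP2A and the 5 genes most like MDM2. Of each list the 3 genes with the smallest p in the unpaired fit are named as well. The leukocyte and epithelial markers and TIMP1, and the called p53-induced genes beyond those 3, were named after their values were seen. Some listed genes were not analysed here. Alternatives changed the filter, centring, normalization, variance model, probe set choice and arrays used.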

Additional observations from a re-analysis of the deposited data

How the results depend on the processing

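Of 477 values of the member probe sets under other settings with dexrazoxane, 435 kept their direction and their side of the threshold, 15 became called and 27 changed sign, all 15 calls in paired fits. The mean of a gene's probe sets is counted there under its brightest probe set. Fits of all 8 arrays equal the main one by construction. Some paired alternatives were chosen after seeing the data: the 60th percentile filter, trended robust variance, centring, quantile normalization, gene-level values and, for the lists, leaving out a pair.

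With the replicate block the count of member probe sets called higher stayed 0; it was 1 with the 40th percentile filter, 2 with the 60th, 7 with trended robust variance, 2 genes with 1 probe set per gene, 1 gene with the mean of probe sets, and 0 to 1 when an array or pair was left out. MDM2 229711_s_at, at 0.58 in these paired fits, was called with both filters, trended robust variance and 1 probe set per gene, and at 0.64 without pair 2; leaving out an array or pair gave 0.51 to 0.66. With the block, p53-induced genes called higher went from 0 to 7, 5 with centring, 4 with the mean of probe sets and 2, 6 and 8 without pair 1, 2 and 3. Over all 19775 genes the same paired fits called 195, 145, 162, 67, 250 and 261 higher. Upstream kinases called lower went to 1, also with centring, beside 230 and 258 of all genes. CCNG1 relatives called higher went to 1 with the mean of probe sets, beside 162 of all genes, and to 0 to 1 without 1 pair, beside 67 to 261. The filters test fewer probe sets; why the remaining values shifted was not tested.

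Sign changes concerned 9 probe sets with no call, 23 of 27 when an array or pair was left out. Leaving out an array gave -0.013 to 0.23 for MDM2 205385_at, -0.051 to 0.041 for 237891_at, -0.22 to 0.38 for MDM4 236814_at, -0.20 to 0.20 for 225740_x_at, -0.20 to 0.049 for 241876_at, -0.53 to 0.063 for 225742_at, -0.25 to 0.059 for 235162_at, -0.24 to 0.22 for 205655_at and -0.14 to 0.12 for RCHY1 235300_x_at. Leaving out a pair, with the block, reached 0.070 for 237891_at, 0.12 for 225740_x_at, 0.016 for 225742_at, 0.064 for 235162_at and 0.13 for 205655_at, and -0.043 for 235300_x_at. The mean of MDM4 probe sets was -0.054 with and without the block, and RCHY1 235300_x_at was -0.0066 after quantile normalization, with and without it. With the mean of probe sets the doxycycline difference of RCHY1 turned from 0.045 to -0.062, that of MDM4 went from 0.12 to 0.22 and that of MDM2 from 0.11 to 0.18. After quantile normalization or centring 0 doxycycline values changed sign, and 4 probe sets, each under 0.12 in size, moved by over 1.5 times.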
